A study of Mus musculus with 12 samples.

Results

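The 10 CC chemokine ligand genes Ccl2, Ccl3, Ccl4, Ccl5, Ccl6, Ccl7, Ccl9, Ccl12, Ccl17 and Ccl27a were followed in acute mouse brain slices. They were picked from the 24 CC ligand symbols in the files by their measured values in the same contrast that is described here, so their differences are given as a description, without a p for any of them, and counts of ligands called in the fit over all loci are no evidence about them. Expression was measured as FPKM, fragments scaled by transcript length and library depth. All 10 had a mean of at least 1 FPKM, the filter used for testing, which 12032 of the 20989 annotated loci passed. At the edge of this filter, Ccl6 was the lowest member with a mean of 1.05 FPKM, and Ccl24 was the highest CC ligand below it with 0.63 FPKM.

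Auditory cortex was dissected from 350 µm coronal slices of 6 C57bl6/J mice, 4 weeks old, with no transgene or genetic change named in the labels. The slices of each mouse were divided at the midline, and both sides passed through 15 min of recovery in a choline-based buffer and 45 min of rest in artificial cerebrospinal fluid (aCSF). One hemisphere then stayed for 1 h in fresh aCSF (control), and the other was kept for 1 h in aCSF with 50 µM bicuculline methiodide, 100 µM norepinephrine, 50 µM carbamoylcholine, 100 µM dopamine, 40 µM ascorbic acid and 100 µM serotonin (cocktail). Bicuculline blocks GABA-A receptors, carbamoylcholine is a stable agonist of acetylcholine receptors, and the monoamines are neuromodulators of the cortex. The comparison asked which transcripts differed between slices with and without these drugs, which the study used to raise neuronal activity. Effects of raised activity and direct effects of the drugs on any cell type cannot be told apart here. Each group had 6 libraries of poly-A RNA, 1 per mouse, and every control library had its partner from the same brain. All groups shared the slicing itself, and no tissue frozen without slicing was compared, so each value below is a level in slice tissue.

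CC chemokines are small secreted proteins with a pair of adjacent cysteines, and they attract leukocytes by binding receptors of the CCR family that couple to inhibitory G proteins. Ccl2, Ccl7 and Ccl12 act through Ccr2, and Ccl6 and Ccl9 are rodent ligands of Ccr1, which Ccl3 and Ccl5 bind as well. In the brain, microglia and macrophages are the best known sources of Ccl3 and Ccl4, and Ccl2 is also made by astrocytes and endothelial cells. Several of these genes are transcribed soon after tissue injury, and their mRNAs tend to be short-lived.

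The libraries held 10600193 to 19768184 reads on annotated loci in control (median 14921190) and 13539422 to 17506709 in cocktail slices (median 15157172). In the fit over all 12032 loci, 33 loci were lower (0.274%) and 147 were higher (1.22%) in cocktail slices at an adjusted p below 0.05 (limma, mouse as a block, Benjamini-Hochberg). Of the 10 ligands, 7 were among the 33 lower loci and 0 among the higher ones, a count fixed by the way they were chosen. The median log2 difference (cocktail minus control, on log2(FPKM + 1)) was -0.55 over the 10 ligands and 0.0076 over all loci. In 6 of the 10 the cocktail value was below the control value in 6 of 6 mice, which held for 2.66% of all loci tested, and in 2 the groups did not overlap (0.199% of loci). Ccl12, which is among both, passed the filter only through its control level, with a mean of 3.08 FPKM in control and 0.713 FPKM in cocktail slices, so a gene passing in this way had to differ between the groups. With mouse 2 left out, 4 of the 10 ligands were called lower.

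**Figure D1:**
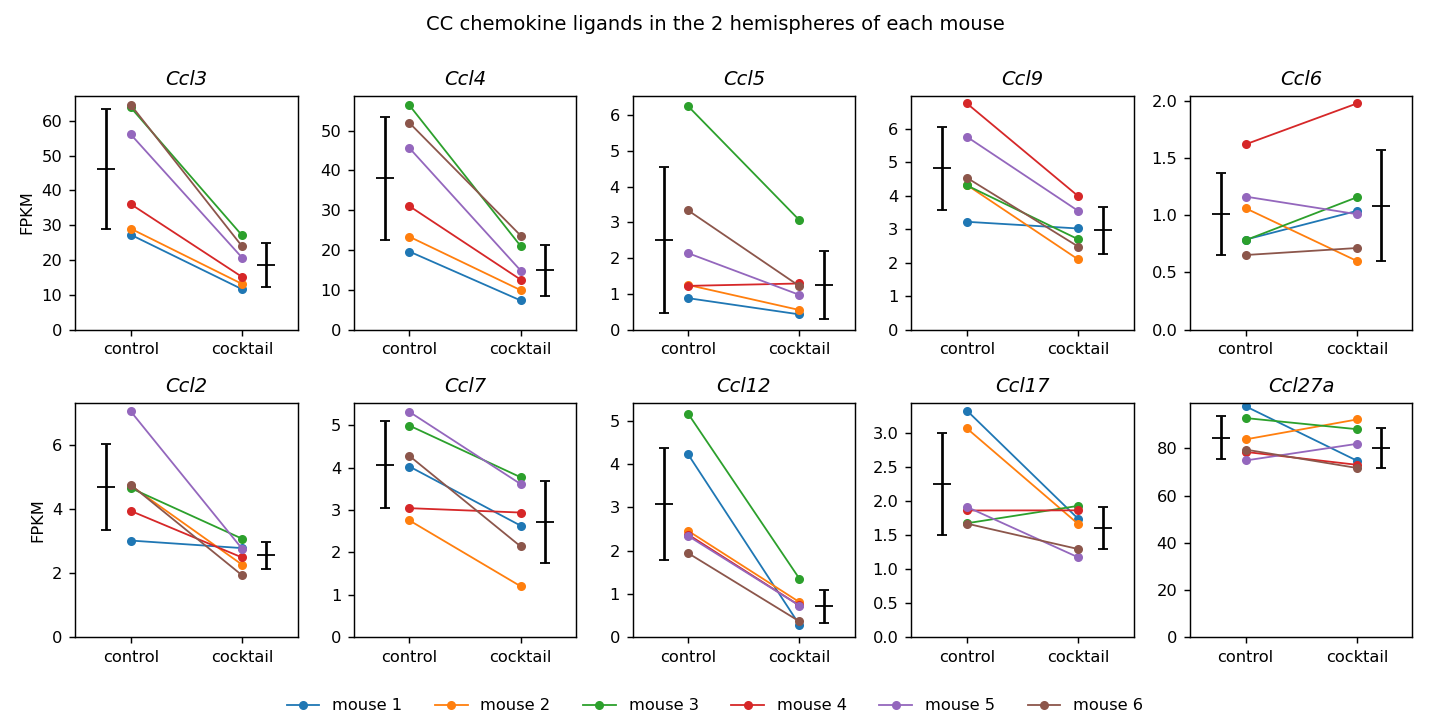
Expression in FPKM of the 10 CC ligand genes in control and cocktail slices; each line joins the hemispheres of 1 mouse (color), and the black bars give the mean ± SD of 6 mice. Ccl3, Ccl4, Ccl12, Ccl2, Ccl7 and Ccl9 were lower in the cocktail hemisphere of every mouse, whereas lines of Ccl6, Ccl17 and Ccl27a crossed.

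In control slices the ligands covered a wide range of levels per transcript length. Ccl27a was the most abundant with 84.5 ± 8.96 FPKM (SD, n = 6), and its lowest library (74.8) lay above the highest library of Ccl3 (64.6). Ccl3 followed with 46.1 ± 17.3 FPKM and Ccl4 with 38.0 ± 15.4 FPKM, and the ranges of this pair overlapped. All other ligands reached at most 7.03 FPKM in any library. In descending order of the control mean these were Ccl9 (4.82), Ccl2 (4.68), Ccl7 (4.07), Ccl12 (3.08), Ccl5 (2.51), Ccl17 (2.25) and Ccl6 (1.01), and the ranges of neighbors overlapped from Ccl9 to Ccl17, so that their order does not exceed the spread between mice. Only Ccl6, with at most 1.62 FPKM, stayed below each library of Ccl17, which had at least 1.67 FPKM. In cocktail slices Ccl27a (80.3), Ccl3 (18.6) and Ccl4 (14.9) kept the upper 3 places, and Ccl12 had the lowest mean (0.713).

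Ccl3 (chr11:83647843-83649378, minus strand, mm10) encodes MIP-1alpha, an inflammatory ligand of Ccr1. Its expression was 27.3, 46.1 and 64.6 FPKM (lowest, median and highest of 6 mice) in control and 11.6, 17.9 and 27.1 FPKM in cocktail slices. The groups did not overlap, but only narrowly, since the highest cocktail library (mouse 3) reached 27.1 and the lowest control library (mouse 1) 27.3 FPKM. The mean changed from 46.1 ± 17.3 to 18.6 ± 6.26 FPKM (SD, n = 6), which is a ratio of 0.403 and a log2 difference of -1.24 (SE 0.053). Here and below, the SE of a log2 difference is the moderated standard error of the limma fit. It draws on the variance of other loci and can be smaller than the spread between the 6 mice alone would give. Within mice the log2 difference ranged from -1.40 to -1.09, so that mice with high control values also had high cocktail values and the step between hemispheres was similar in all 6. In bulk tissue, fewer cells of a type and less RNA per cell cannot be told apart.

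Ccl4 (chr11:83662584-83664683, plus strand) encodes MIP-1beta, which attracts monocytes and T cells, and its gene is the next chemokine gene after Ccl3. It measured 19.6, 38.3 and 56.4 FPKM (lowest, median and highest) in control and 7.33, 13.7 and 23.6 FPKM in cocktail slices. The groups overlapped because cocktail mouse 6 (23.6) lay above control mice 1 and 2 (19.6 and 23.3), and cocktail mouse 3 (21.0) above control mouse 1. Each cocktail hemisphere was nevertheless lower than its own partner, with within-mouse log2 differences from -1.56 to -1.10, a mean log2 difference of -1.29 (SE 0.060) and a ratio of means of 0.392.

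Ccl3 and Ccl4 thus made up most of the summed level of the 8 listed ligands on chromosome 11. Their share of the summed FPKM of the 8 ligands on this chromosome was 74.4 to 85.7% (median 79.5%) in control and 65.1 to 84.3% (median 74.6%) in cocktail slices. The sum of all 8 was 63.0 to 146 FPKM in control and 29.1 to 63.2 FPKM in cocktail slices. Ccl4 was below Ccl3 in all 12 libraries, at a Ccl4 to Ccl3 ratio of 0.720 to 0.883 in control (median 0.809) and 0.630 to 0.986 in cocktail slices (median 0.765).

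The levels of this pair also varied together between mice of the same treatment, which the contrast between treatments does not use. Over the 6 control mice, log2(FPKM + 1) of Ccl3 and Ccl4 had Pearson's r = 0.991 (exact permutation p = 0.00278, adjusted over 8 relations 0.0222) and Spearman's rho = 0.943 (exact permutation p = 0.0167, adjusted 0.0667). Over the 6 cocktail mice r was 0.960 (exact permutation p = 0.00556, adjusted 0.0222) and rho 0.943 (exact permutation p = 0.0167, adjusted 0.0667). Without the 2 mice farthest from the median of Ccl3, r was 0.987 in control and 0.943 in cocktail slices (4 mice each). The points of a group differ in depth, and both genes of a point share its library. In the other 6 relations, which joined Ccl2 with Ccl7, Ccl12 or Ccl3 in each treatment, r ranged from -0.42 to 0.71 and the exact permutation p of r, adjusted over the 8 relations, was at least 0.304 (6 mice each).

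**Figure D2:**
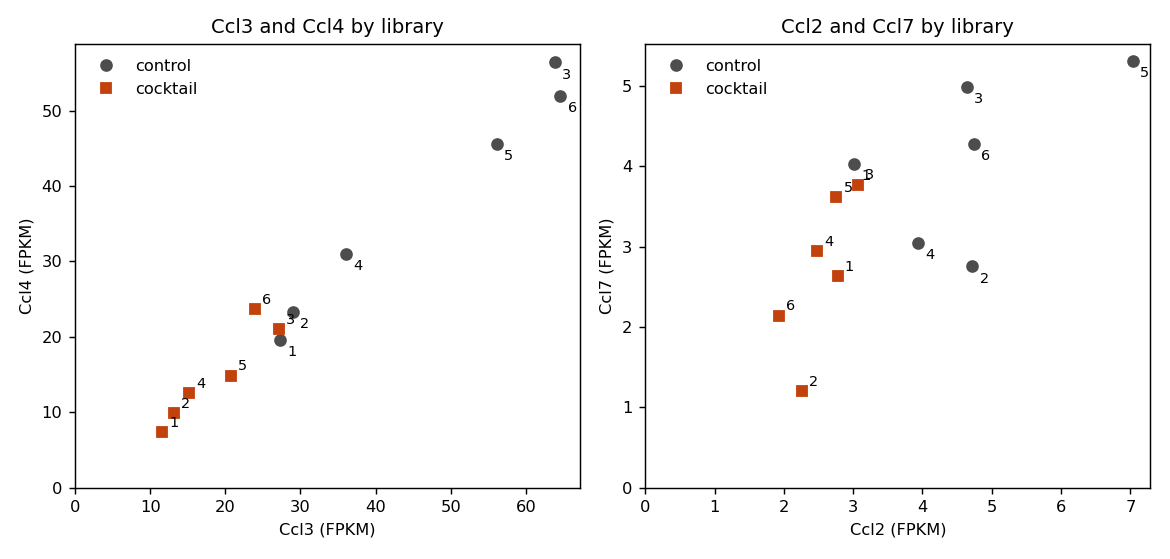
Ccl4 against Ccl3 (left) and Ccl7 against Ccl2 (right) in FPKM, with 1 point per library, numbered by mouse; circles are control and squares cocktail slices. The libraries lie along a line for Ccl3 and Ccl4 (r = 0.991 in control, 0.960 in cocktail), and scatter more for Ccl2 and Ccl7 (r = 0.447 and 0.706).

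Ccl2, Ccl7 and Ccl12, known as monocyte chemoattractant proteins and ligands of Ccr2, lie within 67.8 kb of chromosome 11, and Ccl5, Ccl9, Ccl6, Ccl3 and Ccl4 within 138.9 kb further along it. Summed over the first 3, expression was 9.35 to 14.8 FPKM in control and 4.27 to 8.19 FPKM in cocktail slices, without overlap.

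Ccl12 (chr11:82101845-82103399, plus strand), the mouse chemokine MCP-5, measured 1.94, 2.41 and 5.16 FPKM (lowest, median and highest) in control and 0.289, 0.731 and 1.35 FPKM in cocktail slices. No cocktail library reached the lowest control library. The ratio of means, 0.231, was the smallest among the 10 ligands, although the log2 difference of -1.23 (SE 0.13) was similar to that of Ccl3. The reason is the pseudocount, which compresses differences at low levels, and the difference of Ccl12 was -2.01 with a pseudocount of 0.1 and -2.04 with voom on the recovered reads. These values rest on few reads, 13 to 49 per control library (175 in all) and 3 to 13 per cocktail library (40 in all). The step was widest in mouse 1 (-2.02), where 48 reads stood against 3, and narrowest in mouse 2 (-0.93).

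Ccl2 (chr11:82035577-82037452, plus strand), or MCP-1, the main recruiter of monocytes, measured 3.01, 4.68 and 7.03 FPKM in control and 1.93, 2.62 and 3.07 FPKM in cocktail slices. The ranges met at their edge, where control mouse 1 (3.01) lay just below cocktail mouse 3 (3.07). The log2 difference was -0.66 (SE 0.11) on average, and ran from -0.087 in mouse 1 to -1.10 in mouse 5. Ccl7 (chr11:82045712-82047523, plus strand), or MCP-3, measured 2.75, 4.15 and 5.31 FPKM in control and 1.2, 2.79 and 3.77 FPKM in cocktail slices. Here the groups overlapped broadly, although each mouse was lower in its cocktail hemisphere, by as little as -0.037 in mouse 4 and as much as -0.77 in mouse 2 (mean -0.47, SE 0.089). Ccl7 rested on 15 to 72 reads per library and Ccl2 on 28 to 89.

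Ccl5 (chr11:83525779-83530518), known as RANTES and made by T cells, NK cells and activated myeloid cells, had the largest spread between mice. It measured 0.881, 1.69 and 6.25 FPKM in control and 0.427, 1.10 and 3.06 FPKM in cocktail slices, with a coefficient of variation of 81.0 and 75.9%. Mouse 3 was the highest in both treatments. The level was lower in 5 mice and slightly higher in mouse 4 (0.043), with a mean log2 difference of -0.56 (SE 0.11). The 12 values rest on 4 to 52 reads each, and the difference was -0.89 with a pseudocount of 0.1 and -0.94 with voom on the recovered reads.

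Ccl9 (chr11:83572917-83578636, minus strand), or MIP-1gamma, a ligand of Ccr1, measured 3.22, 4.43 and 6.76 FPKM in control and 2.10, 2.86 and 3.99 FPKM in cocktail slices. The groups overlapped, but the cocktail hemisphere was lower in all 6 mice, at a log2 difference of -0.54 (SE 0.083). In 5 mice the differences lay between -0.78 and -0.52, while mouse 1 differed by only -0.070. Its neighbor Ccl6 (chr11:83587886-83593087, minus strand), whose product binds the same receptor, measured 0.651, 0.923 and 1.62 FPKM in control and 0.6, 1.02 and 1.97 FPKM in cocktail slices. Ccl6 was lower in 2 mice and higher in 4, with a log2 difference of 0.038 (SE 0.085) and 10 to 39 reads per library. Whether the difference of Ccl6 departs from that of Ccl9 was not tested.

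The remaining ligands lie on other chromosomes. Ccl17 (chr8:94810453-94812036, plus strand), the dendritic cell chemokine TARC and a ligand of Ccr4, measured 1.67, 1.89 and 3.33 FPKM in control and 1.18, 1.70 and 1.93 FPKM in cocktail slices. Its log2 difference of -0.30 (SE 0.10) was widest in mice 1 and 2 (-0.66 and -0.61), which had the highest control values, and mice 3 and 4 differed by 0.13 and 0.0011. Ccl27a (chr4:41769470-41774176, minus strand), known as a skin chemokine and a ligand of Ccr10, measured 74.8, 81.6 and 97.8 FPKM in control and 71.7, 78.3 and 92.2 FPKM in cocktail slices. It was lower in 4 mice and higher in 2, with a log2 difference of -0.074 (SE 0.065), and had the smallest coefficient of variation of the set (10.6% in both groups). Ccl6, Ccl17 and Ccl27a were the 3 ligands not called in the fit over all loci.

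**Figure D3:**
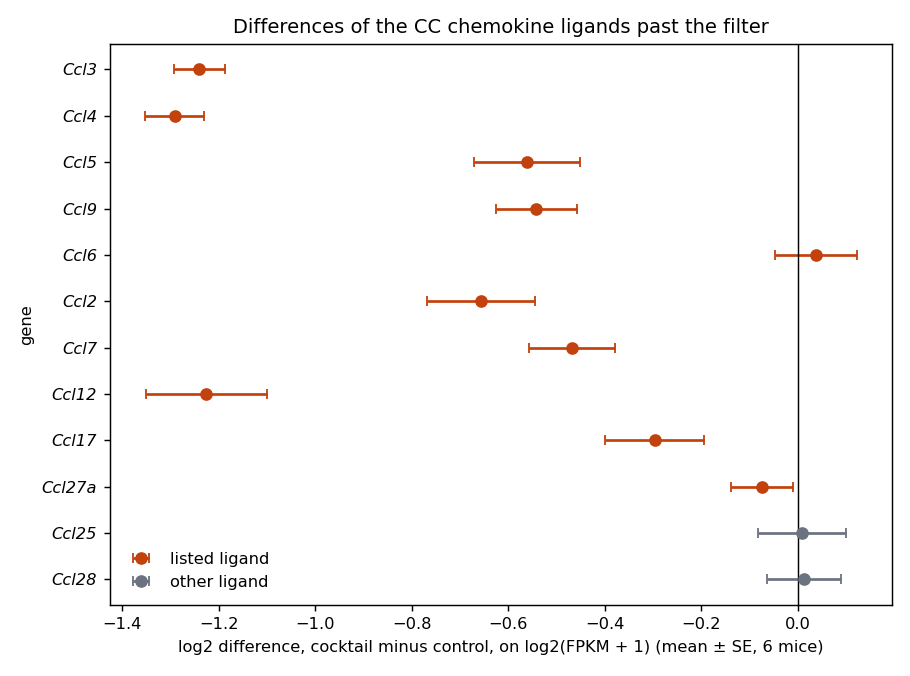
Log2 difference between cocktail and control slices on log2(FPKM + 1), with the moderated standard error of the limma fit (6 mice), for every CC ligand past the filter. The listed ligands run from -1.29 (Ccl4) to 0.038 (Ccl6), and Ccl25 and Ccl28 lie close to 0.

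Some CC ligands are close paralogs, so the sequences were searched for stretches that a read of 50 bases could not place. No window of 50 bases in the transcripts of Ccl2, Ccl3, Ccl4, Ccl5, Ccl6, Ccl7, Ccl12 and Ccl17 occurred in a transcript of another gene. The coding sequences of Ccl3 and Ccl4 were 69.8% identical, and the closest windows between either of them and another CC ligand still differed at 9 positions, above the 6 mismatches that the alignment allowed. Ccl6 and Ccl9 (66.7% identical) were the exception among the chromosome 11 genes, with 56 windows within 6 mismatches of each other (4.03% of the windows of Ccl6 and 1.89% of those of Ccl9). Ccl9 also shared 59 of its 2957 windows (2.00%) with 250 other genes. Ccl27a is different in kind, because 526 of its 792 windows (66.4%) also occur in Ccl27b and 4 unnamed gene models. Reads with several placements were not kept, so the value of Ccl27a rests on the minority of its sequence that is unique, and all loci of Ccl27b were listed at 0. The FPKM of Ccl27a is therefore uncertain in its absolute level.

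**Figure D4:**
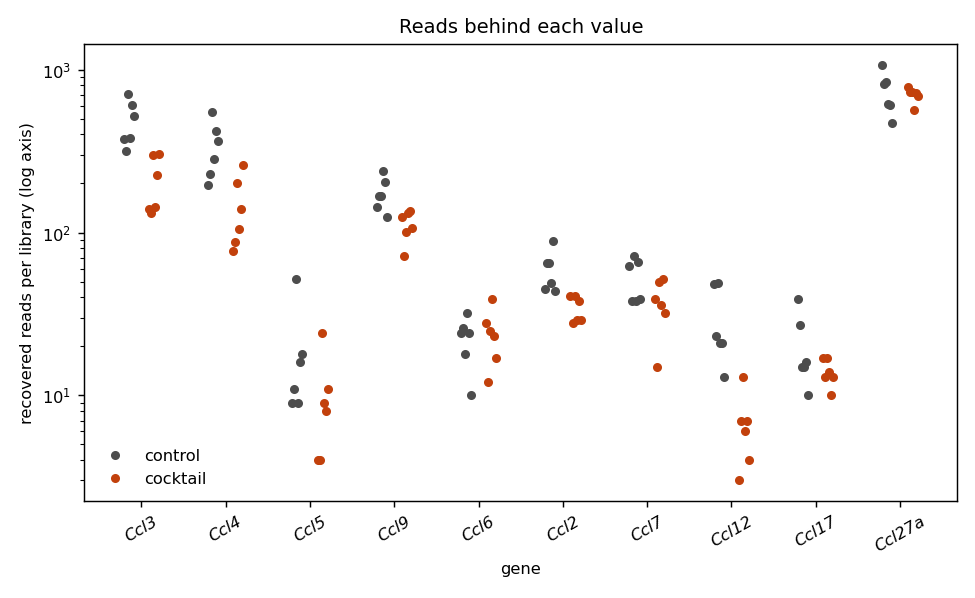
Reads behind each value of the 10 ligand genes on a log axis, with 1 point per library (gray control, orange cocktail). Ccl3, Ccl4, Ccl9 and Ccl27a had at least 72 reads in every library, whereas Ccl12 and Ccl5 went down to 3 and 4 reads.

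The mRNAs of several chemokines carry AU-rich elements in the 3' UTR, short ATTTA pentamers that bind proteins which hasten mRNA decay. Windows of 30 bases of the 3' UTR (GENCODE M21, mm10, written as DNA on the gene's strand, ATTTA in capitals) are shown for 4 of the ligands that were lower in all mice, each the part of its 3' UTR with the most pentamers.
Ccl3 (chr11:83648075-83648104, minus strand): ttgaaattttATTTAATTTAatcctattgg
Ccl12 (chr11:82103325-82103354, plus strand): ATTTAaacaaacttgcttaaataatATTTA
Ccl7 (chr11:82047255-82047284, plus strand): attaatatttttATTTAattagccatgtac
Ccl2 (chr11:82037206-82037235, plus strand): aatattaaacttATTTAacttattgatgtt

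The pentamer was densest in Ccl12, with 5 copies in 167 bases, and 0.493% of the 1217 mouse 3' UTRs within 20% of that length held as many. Ccl3 held 5 copies in 409 bases, a number found in 1.10% of 1722 UTRs of similar length. Ccl4 (2 copies in 302 bases), Ccl7 (2 in 435) and Ccl2 (1 in 275) were less unusual, since 13.4, 19.6 and 34.7% of UTRs of similar length held as many. Ccl6, which was not lower in cocktail slices, held 4 copies in 943 bases and Ccl9 5 in 2465, and 14.1 and 41.6% of UTRs of similar length held as many. None was found in Ccl5, Ccl17 and Ccl27a. The longer motif, an ATTTA with TT on both sides, which 4.54% of 15780 genes carry, was in none of the 10. A match is a description of the letters only, and its relation to the differences between treatments was not tested.

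Of 11 genes whose products bind such elements or stem-loops of cytokine mRNAs, all were tested and 2 rose in cocktail slices (background 1.22%), while 0 fell. This list was chosen with earlier results of these data known. Its count and the adjusted p-values of its genes are therefore given as a description. Zfp36, which encodes tristetraprolin, a protein that binds ATTTA and promotes mRNA decay, measured 35.0, 43.9 and 62.8 FPKM (lowest, median and highest) in control slices and rose from a mean of 47.2 ± 12.4 to 55.8 ± 13.6 FPKM (log2 difference 0.24, SE 0.045, limma adjusted p = 0.0180, higher in 6 of 6 mice). Its relative Zfp36l2 rose from 16.9 ± 2.24 to 20.7 ± 1.55 FPKM (0.28, SE 0.058, limma adjusted p = 0.0346, higher in 6 of 6). The third relative, Zfp36l1, did not pass (21.5 ± 2.83 and 25.9 ± 2.11 FPKM, log2 difference 0.27, limma adjusted p = 0.0578). The groups overlapped in all 3 genes, and the calls depended on the setting, since Zfp36 lost its call in 5 and Zfp36l2 in 8 of 15 alternatives. The median log2 difference of the 11 genes was 0.085.

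Promoter sequences are shown for Ccl3 and Ccl12, the 2 ligands whose groups did not overlap. The 150 bases before the transcription start (RefSeq, GRCm38.p6, gene strand) have GAGGAA, the core bound by PU.1 (the myeloid transcription factor Spi1), and TATAAA in capitals, where GAGGAA on the other strand reads TTCCTC.
Ccl3 (chr11:83649379-83649528, minus strand): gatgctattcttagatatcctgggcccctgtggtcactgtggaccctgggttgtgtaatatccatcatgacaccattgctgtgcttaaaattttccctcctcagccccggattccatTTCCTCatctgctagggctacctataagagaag
Ccl12 (chr11:82101695-82101844, plus strand): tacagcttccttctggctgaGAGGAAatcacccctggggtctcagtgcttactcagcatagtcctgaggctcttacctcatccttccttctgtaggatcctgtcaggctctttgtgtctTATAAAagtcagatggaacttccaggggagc

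RefSeq promoters were at hand for Ccl3, Ccl6, Ccl9, Ccl12, Ccl17 and Ccl27a, and 6 motifs were searched on both strands in the 250 bases before each start. Ccl27a had several starts, and a gene is named where any of its promoters held the motif, whereas the percentages count single promoters. GAGGAA was found in Ccl3, Ccl12, Ccl17 and Ccl27a and in 23.3% of all 32851 promoters. TATAAA was found in Ccl12 and Ccl9 (12.4% of all), and the AP-1 site TGANTCA in Ccl9 and Ccl27a (6.75%). The kappaB-like motif (GGG, any 5 bases, CC), which can overlap GAGGAA, was also found in Ccl9 and Ccl27a (45.8%). In Ccl27a, GAGGAA and the kappaB-like motif lay before overlapping upstream starts. Its AP-1 site lay before a separate start (chr4:41770213-41770362). The cAMP response element TGACGTCA (1.55%) and the interferon element (GAAA, any 2 bases, GAAA; 2.98%) were in none of the 6.

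Of the other 14 CC ligand symbols, Ccl25 and Ccl28 passed the filter. Ccl25, a thymus and gut chemokine, measured 1.71 ± 0.505 FPKM in control and 1.69 ± 0.15 in cocktail slices (log2 difference 0.0099, SE 0.091, limma adjusted p = 0.991). Ccl28, a mucosal chemokine, measured 1.39 ± 0.234 and 1.43 ± 0.378 FPKM (0.014, SE 0.077, limma adjusted p = 0.986). Neither passed the test, and 204 exonic bases of Ccl25 overlap Elavl1 on the opposite strand. Ccl11, which lies between Ccl7 and Ccl12, was below the filter with 28 reads over the 6 control and 10 over the 6 cocktail libraries (0.271 ± 0.126 and 0.0962 ± 0.0789 FPKM). Ccl22, close to Ccl17, had 105 and 82 reads. Of the 26 loci of these other symbols, 19 were listed at 0 in all libraries. Among these were Ccl19, Ccl21a, Ccl21b, Ccl21c and Ccl27b, each listed at several loci. Reads with several placements were not kept, so a value of 0 at such loci does not show that the gene was silent.

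Among the CC receptor genes, Ccrl2 and Ackr1 passed the filter and neither passed the test. Ccrl2, an atypical receptor that binds chemerin, measured 6.91 ± 1.58 and 8.29 ± 1.87 FPKM (0.24, SE 0.082, limma adjusted p = 0.364). Ackr1, a scavenger of chemokines in venules, measured 60.6 ± 9.14 and 54.6 ± 2.58 FPKM (-0.14, SE 0.064, limma adjusted p = 0.645), but 361 of its 1405 exonic bases also belong to Cadm3 on the same strand, so its level is uncertain. Ccr1 and Ccr2 were below the filter, with 58 and 97 reads (Ccr1) and 17 and 15 reads (Ccr2) over the control and the cocktail libraries. Of 24 genes that act downstream of these receptors (G protein subunits, kinases, arrestins and Rac activators), 16 were tested, 0 rose and 0 fell by limma, and their median log2 difference was -0.021.

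Values of cell type markers stand beside the ligands, since several of these genes mark immune cells. All 15 microglia markers were tested, of which Gpr34 (log2 difference -0.30, SE 0.064) was called lower and 0 higher, with a median of 0.065. Their summed level was 177.8 to 192.1 FPKM in control and 172.6 to 218.2 FPKM in cocktail slices. Relative to this sum, Ccl3 amounted to 14.8 to 35.4% in control and 6.67 to 14.1% in cocktail slices. This share repeats the difference of Ccl3, which was listed for its values in this contrast, and is no separate result. The 8 border macrophage markers, among them Mrc1 and Pf4, summed to 3.21 to 5.33 FPKM in control and 3.85 to 5.37 FPKM in cocktail slices.

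Markers of T and NK cells, monocytes and neutrophils were at or near 0. Of the 8 dendritic cell markers 6 were below the filter, and only Zbtb46 (2.64 to 4.09 FPKM in control slices) and Flt3 (1.31 to 1.81 FPKM) passed it. The 12 T and NK cell markers summed to 0.665 to 0.922 FPKM in control and 0.530 to 1.02 FPKM in cocktail slices, with Cd3e, Cd3g, Nkg7 and Ncr1 listed at 0 in all libraries. The 10 monocyte and neutrophil markers summed to 0.171 to 0.375 FPKM in control and 0.0684 to 0.398 FPKM in cocktail slices, the 8 dendritic cell markers to 4.99 to 6.32 and 4.51 to 6.51 FPKM, and the 5 blood genes to 0.246 to 2.40 and 0.715 to 2.80 FPKM. In the lists for astrocytes, endothelial cells, neurons and oligodendrocytes (8 genes each), 0 genes were called in either direction. The neuronal markers, among them Snap25, Slc17a7 and Gad1, summed to 2517 to 3363 FPKM in control slices, as a check of the labelled brain tissue.

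**Figure D5:**
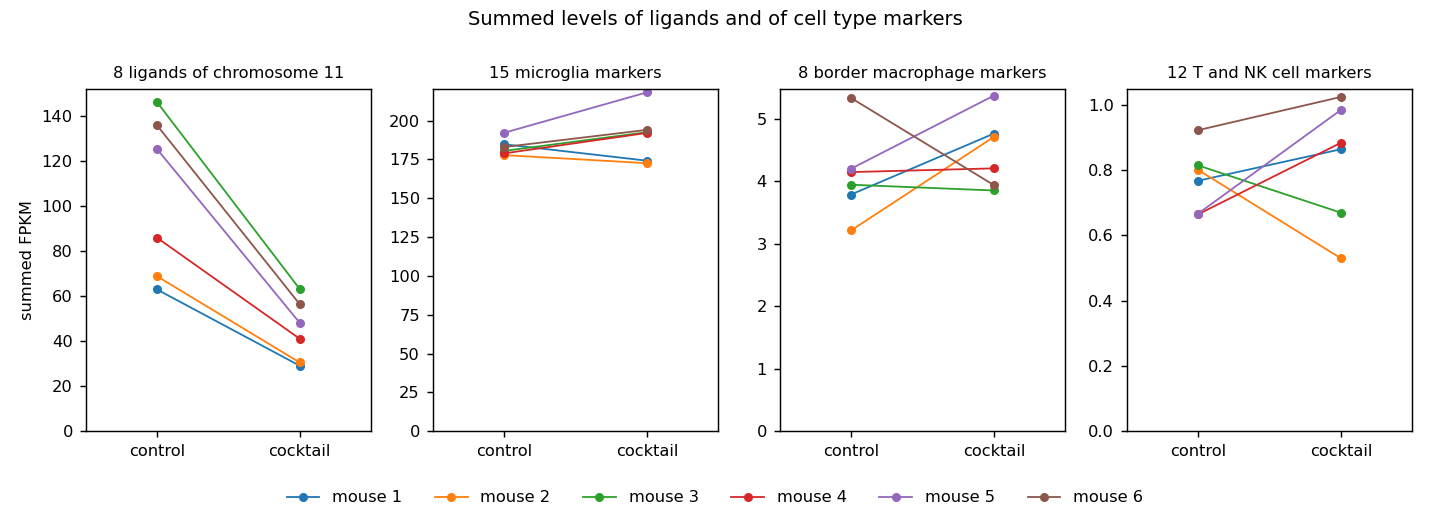
Summed FPKM of the 8 ligands of chromosome 11 and of 3 marker lists in control and cocktail slices, with 1 line per mouse. The ligand sum was lower in the cocktail hemisphere of each mouse (63.0 to 146 against 29.1 to 63.2), while lines of the microglia, border macrophage and T and NK cell markers went in both directions.

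The genes most like the ligands were sought over the 12 libraries after the mean of each treatment had been removed, by Pearson's r with the mean of the 10 scaled ligands. The highest values belonged to Cd97 (r = 0.947), Il6 (0.900), Tlr2 (0.899), Ttc38 (0.887) and Clptm1l (0.883). Cd97 is an adhesion receptor of leukocytes, Il6 encodes the cytokine interleukin 6, and Tlr2 a receptor for bacterial lipoproteins. The ligands themselves reached 0.82 (Ccl5), 0.80 (Ccl7), 0.69 (Ccl3) and 0.63 (Ccl4), down to 0.074 for Ccl27a and -0.21 for Ccl17. Each ligand is part of the mean it was compared with, whereas the other genes were the highest of all other loci tested. The r of ligands and of other genes are therefore not comparable. The libraries of a mouse are not independent and all points share differences in depth, so these values are a description.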

How the data were processed

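Total RNA of 12 dissected auditory cortices (6 control, 6 cocktail) was poly-A selected, prepared with a directional kit and sequenced as single reads of 50 bases in 1 lane. The study's methods add a further 1 h of rest in aCSF after the incubation, which the labels do not give. The authors removed ribosomal reads with BWA 0.6.1, aligned the rest to mm10 with TopHat 1.4.1 (at most 6 mismatches, 1 placement per read) and deposited FPKM from Cufflinks 1.3.0, bias-corrected and relative to fragments on protein-coding RefSeq genes. The strand setting of Cufflinks is not given in the sources used here. A deposited table of the authors' own comparison (HTSeq 0.6.1p1 and DESeq2 1.6.3, with fold changes and p-values) was not used.

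FPKM values were tested as log2(FPKM + 1), which understates changes of low genes, with limma 3.58.1 in R 4.3.3 on loci with a mean of at least 1 FPKM, with treatment and mouse as terms, a variance trend, and p-values adjusted after Benjamini and Hochberg over all 12032 loci (threshold 0.05). The mouse numbers of the labels pair the libraries (correlation of deviations 0.216 to 0.406 in 6 same-mouse pairs, -0.42 to 0.445 in 30 others). Reads behind each value were recovered from the Cufflinks intervals, and 83.2% of 36158 values under 20 reads were whole to within 0.05. Among the ligands, 100% of the 108 values of genes with 1 group of transcript starts were whole, and 90.0% of all 120 values. Recovered reads of a gene with several such groups are therefore approximate. The recovered reads cover counting error only. Libraries within a group differed beyond sampling noise (chi-square per gene 7.29 to 37.1). The fit was tested on simulated data. Alternatives were another pseudocount, filter, scaling, variance model or threshold, no block, leaving out each mouse, voom on the recovered reads, and loci of OK status only.

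The ligands and all gene lists were chosen with earlier results of these data known. The named genes are the 10 ligands, every other CC ligand and receptor past the filter (except 1 that is not reported here), the called genes of the signalling and stability lists, and the 5 loci with the highest r with the ligands. Zfp36l1, Ccl11, Ccl22, Ccl24, Ccr1, Ccr2 and Gpr34 were named after their values were seen. Promoter and transcript sequences were taken from RefSeq (GRCm38.p6) and GENCODE M21. Plots used matplotlib 3.10.9 under Python 3.11.15.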

Additional observations from a re-analysis of the deposited data

Results flagged for a closer look

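Among 45 groups of 6 values examined for a library far from the others, 2 were found, and 2.25 would be found by chance. Ccl5 in cocktail slices was highest in mouse 3 (3.06 FPKM, where the others had 0.427 to 1.29 FPKM), with a gap of 0.672 of the whole range. The within-mouse log2 difference of Ccl9 was highest in mouse 1 (-0.070, where the other mice had -0.78 to -0.52), with a gap of 0.634 of the range. The difference of Ccl5 without mouse 3 was -0.51, and that of Ccl9 without mouse 1 was -0.64.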

How the results depend on the processing

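Each member kept its direction under the 14 or 15 alternatives tried, except Ccl6, which was lower in 1. Over all loci, 180 were called (968 at an unadjusted p below 0.05), 88 with no replicate block and 104 to 181 when 1 mouse was left out, the lowest without mouse 4. Of the 10 ligands, 7 were called lower, 4 without the filter, 4 with no replicate block, 4 with voom on recovered reads, 2 with a mean of at least 5 FPKM, where only 3 ligands remain, and 4 to 7 when 1 mouse was left out, the lowest without mouse 2. The median log2 difference over the ligands was -0.55, and -1.24 with a mean of at least 5 FPKM. Of the signalling genes 1 was called without the filter. Of the 2 stability genes, 1 was called without the filter, 0 with no replicate block, 0 with voom, and 0 to 1 when 1 mouse was left out, 0 without mouse 3 or mouse 5. The cause was not tested. The scalings moved the median of all loci by less than 0.02. Depth limits Ccl5, Ccl6, Ccl12 and Ccl17, with as few as 3 to 10 reads in a library.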
